A study of Pyrus betulifolia with 6 samples.

Results

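Cytokinins are adenine-derived plant hormones, and the genes described here are those that make, inactivate, perceive and respond to them in the root tip of Pyrus betulaefolia, a pear used as a rootstock. They were chosen by text and not by expression, as every gene whose protein description in the deposited annotation held 1 of 6 wordings: cytokinin, two-component response regulator, histidine-containing phosphotransfer, histidine kinase, adenylate isopentenyltransferase or zeatin O-. The rule found 108 of the 37815 genes in the table. The libraries came from wild-type seedlings grown in nutrient solution, 3 from root tips kept without boron for 24 h (B deficiency) and 3 from root tips of the control, which received boron in the same solution. The labels call the libraries biological replicates. The paper describes several plants to a box, and a random harvest from each treatment of only as many plants as a box held. How many plants or boxes each library drew on is not given, so the libraries of a group may share a box. Reads of P. betulaefolia were mapped to the genome of a related pear, P. bretschneideri, and the values are FPKM, fragments scaled by transcript length and by the mapped total of the library, so that levels can be compared between genes.

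Cytokinin synthesis begins when an isopentenyltransferase (IPT) joins an isoprenoid side chain to an adenine nucleotide, a cytochrome P450 hydroxylase turns the product into the trans-zeatin form, and a LOG phosphoribohydrolase releases the active base. Cytokinin dehydrogenase (CKX) cuts the side chain off again, and glycosyltransferases store the hormone as a conjugate. In Arabidopsis, the hormone is bound by membrane histidine kinases, which pass a phosphate through small phosphotransfer proteins to response regulators in the nucleus. Type-B response regulators are transcription factors that switch on target genes, among them the type-A response regulators, which have no DNA-binding part and dampen the signal. In the Arabidopsis root tip, cytokinin moves cells from division to differentiation and so limits the size of the meristem.

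By description, the 108 genes fell into 25 synthesis genes (7 IPT, 4 hydroxylase and 14 LOG genes), 11 CKX genes, 1 zeatin O-glucosyltransferase gene, 13 histidine kinases, 12 phosphotransfer proteins, 13 type-A, 17 type-B and 2 type-C response regulators, and 14 pseudo-response regulators. The last group entered through the wording "response regulator-like". Most proteins of this name resemble the receiver part of a response regulator and belong to the circadian clock, not to cytokinin signalling. Of the 14 genes, 8 had the receiver and CCT domains of a clock regulator. LOC103934524 and LOC103960428, both described as APRR2, had a receiver and a Myb-type DNA-binding domain instead, and LOC125469170 had neither a receiver nor a CCT domain. The protein domains in the table, which the rule did not use, fitted most descriptions. All 11 CKX genes had both domains of the enzyme, all 7 genes of histidine kinases 2 to 4 had the CHASE domain that binds cytokinin, and none of the other 6 histidine kinases did. All 13 type-A genes had a receiver domain and none had a Myb-type DNA-binding domain, whereas 11 of the 17 type-B genes had both.

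Of the 108 genes, 75 averaged 0.5 FPKM or more over the 6 libraries and were tested, 17 were detected below this level and 16 were listed at 0 in every library. A gene was called up- or down-regulated when its absolute log2 fold change (B deficiency minus control, on log2(FPKM + 0.1)) was at least 1 and its adjusted p was under 0.05 (limma, adjusted over all 28129 genes tested). Fold changes of weakly expressed genes are understated on this scale. B deficiency up-regulated 3 of the 75 genes (4.0%, against 4.37% of all genes tested) and down-regulated 3 (4.0%, against 3.83%). Without the minimum fold, 9 genes (12%) were higher, against 12% of all genes tested, and 9 (12%) were lower, against 15.4%. In 16 genes (21.3%) all B deficiency libraries lay above all control libraries, against 18.5% of all genes tested, and in 21 (28.0%) all lay below, against 26.6%. As a whole, the genes thus moved about as often as the background, and their median log2 fold change was -0.10, against -0.05 over all genes tested. The roles differed in their medians, which ran between -0.46 for the CKX genes and 0.51 for the type-A response regulators.

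**Figure D1:**
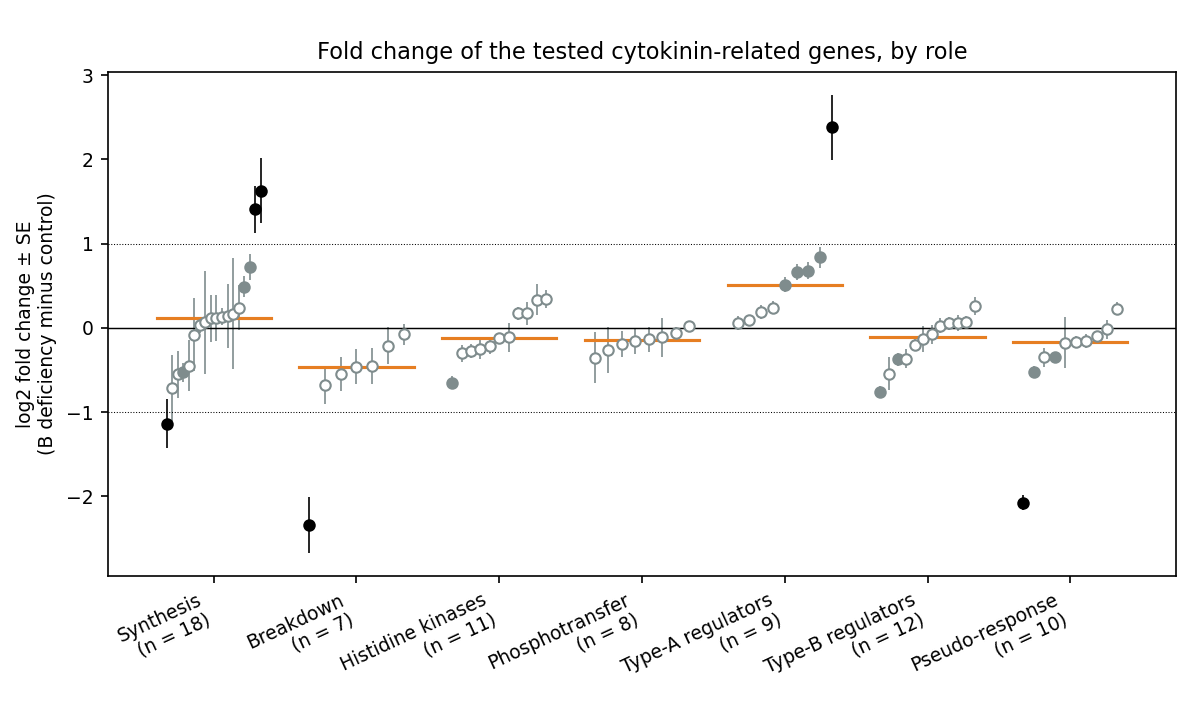
The log2 fold change (B deficiency minus control) of each of the 75 tested genes is plotted by role, with bars of 1 standard error and an orange line at the median of the role. Black points are called genes, grey points have an adjusted p under 0.05 below the minimum fold, open points have neither, and dotted lines mark the minimum fold of 1 in each direction. All 9 type-A response regulators lie above 0 and all 7 CKX genes below 0.

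The labelled tissue was checked on marker genes. The root list, matched by description, had summed levels of 120 to 126 FPKM in B deficiency and 141 to 145 FPKM in the control. Of its 27 genes, 26 were above the minimum level. Most were described as ROOT PRIMORDIUM DEFECTIVE 1, and how specific these are to the root was not examined. PLT2, SCARECROW and SHORT-ROOT genes made up the rest, and those of PLT2 and SHORT-ROOT were all above the minimum level. All 3 shoot meristem markers (SHOOT MERISTEMLESS and WUSCHEL genes) were listed at 0. Leaf mesophyll markers were led by a Rubisco small subunit gene and summed to 579 to 639 FPKM in B deficiency and 575 to 610 FPKM in the control. The 4 root cap markers (SOMBRERO and BEARSKIN2 genes) summed to 17.95, 24.6 and 21.8 FPKM in B deficiency libraries 1, 2 and 3, against 34.1, 35.5 and 35.7 in the control, and all 4 lay lower in every B deficiency library. The BEARSKIN2 gene LOC103956584 was called lower (log2 fold change -1.02, limma adjusted p = 0.000934). It was the only 1 of the 4 to be called, and 3 of the 4 had an adjusted p under 0.05. The 5 xylem markers summed to 64.8, 53.0 and 64.6 FPKM under B deficiency, against 52.2, 50.1 and 50.2 in the control. Of the 4 xylem markers tested none was called, 2 were higher in every B deficiency library and 2 overlapped. Of the 26 tested genes of the root list none was called, 2 were higher and 7 lower in every B deficiency library. Of all genes tested, 18.5% were higher and 26.6% lower in every B deficiency library. The count of lower genes in the root list was thus near the share over all genes. As sums, the root list and the root cap markers were lower in every B deficiency library, and the xylem sum was higher by a small margin. The part of these markers in the results below was not tested. In a bulk sample, fewer cells of a type and less RNA per cell cannot be told apart. B deficiency library 2 stood apart from the other libraries of its group. It was the farthest of the 3 in 52.5% of all genes tested and in 38 of the 75 genes described here (50.7%). Without it, the same counts of 3 up-regulated and 3 down-regulated genes were obtained.

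In cytokinin synthesis, 2 of 18 tested genes were up-regulated (11.1%, against 4.37% of all genes tested) and 1 was down-regulated (5.56%, against 3.83%). The IPT gene with the highest level, the IPT5-like LOC103934169, had 12.22, 8.85 and 12.01 FPKM in B deficiency libraries 1, 2 and 3, against 5.65, 6.76 and 7.39 in the control. In Arabidopsis, IPT5 is a root-expressed enzyme of this first step. The B deficiency libraries all exceeded the control libraries, but the log2 fold change of 0.73 (standard error, SE, 0.157, limma adjusted p = 0.0139) was below the minimum fold. LOC103955627, described only as adenylate isopentenyltransferase, went the other way at a lower level, with 0.66, 1.17 and 1.47 FPKM under B deficiency and 2.62, 2.54 and 2.15 in the control. It was down-regulated (log2 fold change -1.14, SE 0.290, limma adjusted p = 0.0254). This call was lost with log2(FPKM + 1) (-0.73), without B deficiency library 1 (-0.84) and without control library 1, 2 or 3 (adjusted p = 0.0890, 0.0861 and 0.0612 from limma). The other 2 tested IPT genes, LOC103947653 and LOC103947125, had log2 fold changes of 0.11 and -0.45 with adjusted p above 0.3. Of the 3 IPT genes below the minimum level, LOC125478063 and LOC103947564, both described as IPT3, had at most 0.64 and 0.12 FPKM in any library, and LOC103961092 was listed at 0. Summed over the 7 IPT genes, the level was 14.4, 12.3 and 15.3 FPKM under B deficiency, against 10.3, 11.4 and 11.98 in the control, and most of it came from LOC103934169.

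The hydroxylase genes stand for the step to trans-zeatin. LOC103947823 carried nearly all of their level, with 18.7, 16.2 and 20.5 FPKM under B deficiency and 18.4, 17.6 and 17.8 in the control. The groups overlapped, and the log2 fold change was 0.04 (95% interval from -0.19 to 0.26, limma adjusted p = 0.814). LOC103932205, another gene described as cytokinin hydroxylase-like, had 1.15, 1.72 and 1.67 FPKM under B deficiency and 0.61, 0.43 and 0.47 in the control, and it was up-regulated (log2 fold change 1.41, SE 0.280, limma adjusted p = 0.00975). With log2(FPKM + 1) its log2 fold change was 0.74 and it was not called. The KEGG name of this enzyme, CYP735A, was attached to LOC103947823 but not to LOC103932205. LOC125474787, which carries that name, had 0.71, 0.60 and 0.79 FPKM under B deficiency and 0, 0.10 and 0.15 in the control, under the minimum level. In the fit without a minimum it was called at a log2 fold change of 2.22 (SE 0.390, limma adjusted p = 0.00725). Both hydroxylase genes that were higher thus had little transcript. LOC103932209 was listed at 0.

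LOG enzymes release the active base. The LOG genes with the highest levels were LOC103952322, a LOG8-like gene, and LOC103927909, a LOG3-like gene. LOC103952322 had 33.5, 27.1 and 34.6 FPKM under B deficiency and 29.8, 29.3 and 27.2 in the control, with groups that overlapped (log2 fold change 0.13, 95% interval from -0.10 to 0.37, limma adjusted p = 0.366). LOC103927909 had 30.4, 23.1 and 32.1 FPKM under B deficiency and 20.9, 18.8 and 20.6 in the control. It was higher in every B deficiency library, with a log2 fold change of 0.49 (SE 0.125, limma adjusted p = 0.0258) that did not reach the minimum fold. With any library but B deficiency library 2 left out, its adjusted p lay between 0.0661 and 0.0926 (limma). A second LOG8-like gene, LOC103964527, was lower in every library, with 5.53, 5.06 and 4.41 FPKM under B deficiency and 7.55, 7.08 and 7.02 in the control (log2 fold change -0.53, SE 0.113, limma adjusted p = 0.0133). The only called LOG gene was LOC125479253, a LOG1-like gene, which had 1.81, 0.90 and 1.33 FPKM under B deficiency and 0.23, 0.52 and 0.35 in the control (log2 fold change 1.63, SE 0.383, limma adjusted p = 0.0187). Its call was lost with log2(FPKM + 1) (0.77), without B deficiency library 1 or 3 (adjusted p = 0.0696 and 0.0597 from limma) and without control library 1 or 3 (0.0586 and 0.0567). The other 8 tested LOG genes had adjusted p above 0.18 and groups that overlapped. Of the 14 LOG genes, LOC125472506 had at most 0.07 FPKM and LOC103956750 was listed at 0.

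CKX enzymes break cytokinin down, and all 7 tested CKX genes had negative log2 fold changes, between -2.34 and -0.07 with a median of -0.46. The CKX2-like gene LOC103944039 had 0.52, 0.21 and 0.51 FPKM under B deficiency and 2.52, 2.09 and 2.56 in the control. The highest B deficiency library was far below the lowest control library, and the gene was down-regulated (log2 fold change -2.34, SE 0.331, limma adjusted p = 0.00231). With each library left out in turn its log2 fold change stayed between -2.51 and -2.01, and with log2(FPKM + 1) it was -1.27, all called. It was the only CKX gene with an adjusted p under 0.05 (14.3% of the 7 tested, against 15.4% of all genes tested lower). The called share was also 14.3%, against 3.83%. In 28.6% of the 7 genes all B deficiency libraries lay below all control libraries, against 26.6% of all genes tested. By adjusted p and by overlap, the CKX genes were thus near the share over all genes. LOC103957629, a CKX6-like gene, had 2.14, 1.36 and 2.06 FPKM under B deficiency and 2.85, 2.53 and 3.58 in the control. These groups did not overlap, but the adjusted p was 0.0643 (log2 fold change -0.67, limma). The CKX gene with the highest level, the CKX7-like LOC103927480, had 4.35, 7.31 and 4.53 FPKM under B deficiency and 8.51, 7.18 and 7.50 in the control. Only B deficiency library 2 reached the control range, and the log2 fold change was -0.55 (SE 0.201, limma adjusted p = 0.0844). The other 4 tested CKX genes had adjusted p above 0.14.

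Below the minimum level, the CKX4-like gene LOC103951949 had 0.28, 0.17 and 0.25 FPKM under B deficiency and 0.86, 0.40 and 0.96 in the control, and the fit without a minimum called it lower (log2 fold change -1.28, SE 0.360, limma adjusted p = 0.0429). LOC103944001 and LOC103929171 had at most 0.21 and 0.08 FPKM, and LOC103940781 was listed at 0. The summed level of the 11 CKX genes was 16.7, 19.5 and 16.7 FPKM under B deficiency, against 27.3, 22.6 and 27.6 in the control. The zeatin O-glucosyltransferase gene LOC103953184 had at most 0.14 FPKM in any library. Within each library, the summed IPT level over the summed CKX level was 0.866, 0.629 and 0.916 in B deficiency, against 0.379, 0.506 and 0.434 in the control. This ratio is free of any scaling between libraries, and the groups did not overlap. It rests on transcript levels, and hormone contents of the cytokinin type were not analysed here.

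**Figure D2:**
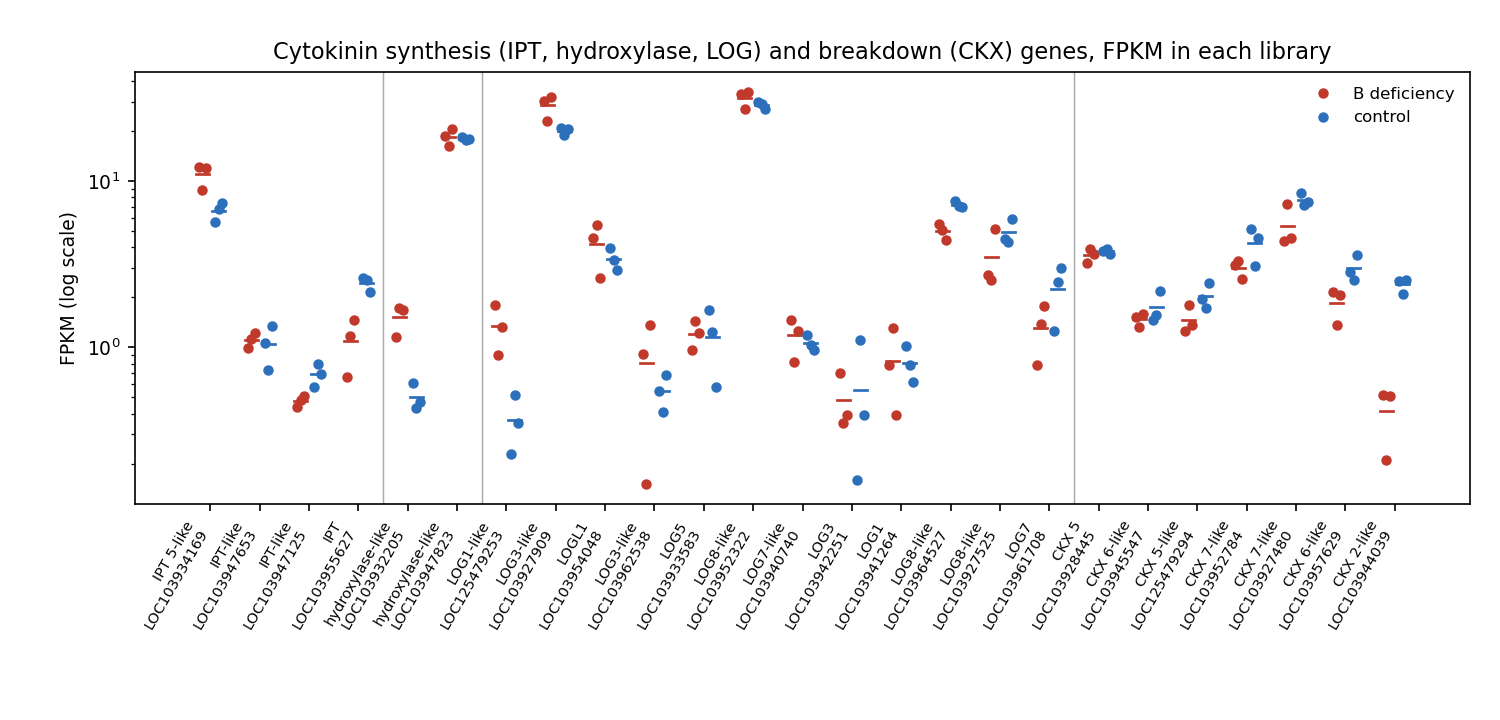
FPKM on a log axis of the 25 tested genes of cytokinin synthesis (IPT, hydroxylase, LOG) and breakdown (CKX), with 1 point per library, lines at the group means, and B deficiency (red) left of control (blue) for each gene. The genes are ordered by fold change within each enzyme. The CKX2-like gene at the right lies at 0.21 to 0.52 FPKM in B deficiency, against 2.09 to 2.56 FPKM in the control.

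Cytokinin is perceived by the histidine kinases with a CHASE domain, named 2, 3 and 4 after Arabidopsis, where kinase 4 is needed for the formation of root vascular tissue. No histidine kinase gene was called among 11 tested, against 4.37% of all genes tested called higher and 3.83% lower. Of the 11, 4 (36.4%) were lower in every B deficiency library, against 26.6% of all genes tested, and 3 (27.3%) were higher, against 18.5%. With an adjusted p under 0.05, 1 (9.09%) was lower, against 15.4%. The 3 genes of histidine kinase 3 were all among those lower in every B deficiency library. LOC125468161 had 6.17, 6.08 and 6.08 FPKM under B deficiency and 9.80, 9.38 and 9.73 in the control (log2 fold change -0.65, SE 0.0792, limma adjusted p = 0.00121), a difference many times the spread within each group but below the minimum fold. LOC103961446 had 9.61, 11.2 and 10.1 FPKM under B deficiency and 12.03, 12.84 and 12.45 in the control, and LOC103935117 had 10.3, 12.8 and 10.6 FPKM under B deficiency and 13.4, 13.8 and 14.2 in the control. Their log2 fold changes of -0.27 and -0.30 had adjusted p of 0.0517 and 0.0597 (limma).

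Both genes of histidine kinase 4 were higher in every B deficiency library, as were 18.5% of all genes tested. LOC103943104 had 15.4, 20.7 and 17.9 FPKM under B deficiency and 13.99, 14.27 and 14.08 in the control (log2 fold change 0.34, SE 0.109, limma adjusted p = 0.0554). LOC103958138 had 16.1, 18.1 and 16.0 FPKM under B deficiency and 14.4, 15.2 and 14.9 in the control (log2 fold change 0.17, limma adjusted p = 0.139). Neither passed the test alone. The summed level of kinase 4 over that of kinase 3 was 1.21, 1.29 and 1.27 in B deficiency libraries 1, 2 and 3, against 0.804, 0.819 and 0.796 in the control, so that kinase 4 was the more abundant of the pair in B deficiency and kinase 3 in the control. The genes of histidine kinase 2 had log2 fold changes of 0.17 and -0.25 with groups that overlapped. Together the 7 receptor genes summed to 69.7, 84.9 and 72.7 FPKM under B deficiency and 77.7, 79.4 and 79.0 in the control, ranges that overlapped.

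The other histidine kinases have no CHASE domain. The highest of them, the kinase 1-like LOC103967791, whose Arabidopsis relative is a sensor of osmotic state, had 25.5, 27.7 and 25.8 FPKM under B deficiency and 27.4, 28.6 and 30.0 in the control, with an overlap of the groups (log2 fold change -0.12, limma adjusted p = 0.210). The 3 further tested genes had log2 fold changes from -0.22 to 0.33 with adjusted p above 0.14. The CKI1-like genes LOC103930567 and LOC103932004, whose Arabidopsis relative acts in the female gametophyte, were listed at 0.

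**Figure D3:**
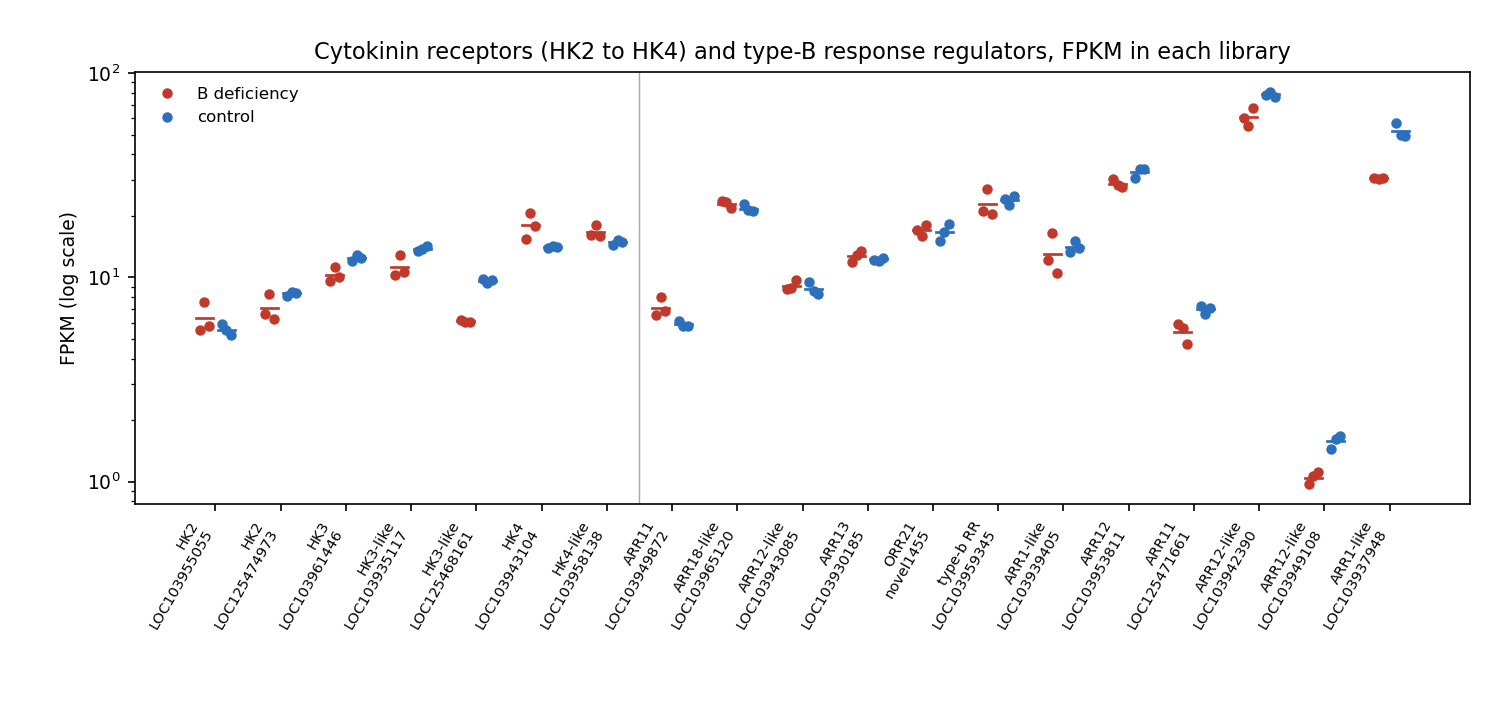
FPKM on a log axis of the 7 receptor genes (histidine kinases 2 to 4, left of the grey line) and the 12 tested type-B response regulators (right), with 1 point per library, lines at the group means, and B deficiency (red) left of control (blue). The 3 kinase 3 genes lie lower and the 2 kinase 4 genes higher in every B deficiency library, and the ARR1-like gene LOC103937948 at the right lies at 30.2 to 30.8 FPKM, against 49.0 to 56.7 FPKM in the control.

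Phosphotransfer proteins carry the phosphate from the receptors to the nucleus, and their genes showed little difference between the groups. None of the 8 tested had an adjusted p under 0.05, against 12% of all genes tested higher and 15.4% lower. In all 8 the groups overlapped, while 18.5% of all genes tested were higher and 26.6% lower in every B deficiency library. LOC103958531, described as phosphotransfer protein 1, was the most expressed of all 108 genes, with 243, 269 and 245 FPKM under B deficiency and 258, 249 and 240 in the control. Its log2 fold change was 0.02, with a 95% interval from -0.12 to 0.15 (limma adjusted p = 0.838). The other 7 had log2 fold changes between -0.35 and -0.05. LOC103939079, a pseudo-phosphotransfer protein 6 gene of the kind that blocks the relay in Arabidopsis, had 1.90, 0.95 and 1.97 FPKM under B deficiency and 2.07, 2.31 and 1.63 in the control. LOC125475617 had at most 0.21 FPKM, and 3 genes were listed at 0.

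Type-A response regulators are induced by cytokinin itself in Arabidopsis and serve there as a readout of the signal. All 9 tested genes had positive log2 fold changes, with a median of 0.51. In 7 of the 9 (77.8%) the B deficiency libraries all exceeded the control libraries, against 18.5% of all genes tested, and 5 (55.6%) were higher with an adjusted p under 0.05, against 12%. Only 1 passed the minimum fold. This was the ORR9-like gene LOC103942622, which had 6.07, 3.33 and 5.76 FPKM under B deficiency and 1.21, 0.45 and 1.12 in the control. It was 5.21-fold higher (log2 fold change 2.38, SE 0.386, limma adjusted p = 0.00419), and between 1.98 and 2.65 on the log2 scale with each library left out in turn.

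The other type-A genes rested on higher levels and moved less. The ORR9-like LOC125472953 had 7.60, 7.33 and 6.39 FPKM under B deficiency and 4.42, 3.81 and 3.58 in the control (log2 fold change 0.84, SE 0.125, limma adjusted p = 0.00292). The last tested ORR9-like gene, LOC103952145, had 12.9, 11.3 and 13.3 FPKM under B deficiency and 8.39, 7.02 and 7.89 in the control (log2 fold change 0.68, SE 0.104, limma adjusted p = 0.00322). The ORR10-like LOC103942470 had 40.1, 31.4 and 36.9 FPKM under B deficiency, against 22.7, 22.7 and 22.6 in the control, where the libraries hardly differed (log2 fold change 0.66, SE 0.0921, limma adjusted p = 0.00217). The ARR5-like LOC125479878 had 41.0, 35.6 and 40.5 FPKM under B deficiency and 24.7, 29.8 and 27.4 in the control (log2 fold change 0.51, SE 0.0908, limma adjusted p = 0.00597). In each of these genes the lowest B deficiency library was above the highest control library.

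The other 4 tested type-A genes, among them the pair with the highest levels, had adjusted p above 0.05. The ARR5-like LOC103950970 had 58.1, 51.0 and 53.7 FPKM under B deficiency and 49.7, 44.7 and 43.4 in the control (log2 fold change 0.24, limma adjusted p = 0.0513), and for a further ARR5-like gene, LOC125478943, these values were 0.19 and 0.125. The ARR6 gene LOC125477598 had 52.1, 49.0 and 56.6 FPKM under B deficiency and 50.7, 48.3 and 48.9 in the control, with an overlap (log2 fold change 0.09, 95% interval from -0.06 to 0.24, limma adjusted p = 0.349). The second ORR10-like gene, LOC103932160, overlapped as well, with 21.5, 18.8 and 20.8 FPKM under B deficiency and 18.1, 20.2 and 20.2 in the control. For the ORR10-like pair LOC103942470 and LOC103932160 the log2 fold changes were 0.66 and 0.06, with 95% intervals from 0.45 to 0.88 and from -0.13 to 0.25 that did not overlap, and the difference between these genes was not tested. How the reads of near-identical copies were shared out is not settled by the sources used here, so the level of a single copy is uncertain. The 4 ARR17 genes were not expressed at the minimum level, with at most 0.34 FPKM in any library.

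Summed over the 13 type-A genes, the level was 271, 238 and 269 FPKM in B deficiency libraries 1, 2 and 3, against 206, 206 and 204 in the control. B deficiency library 2 had the lowest type-A sum of its group, and also the lowest xylem marker sum and the highest root cap marker sum given above. It likewise had the lowest IPT sum and the highest CKX sum of its group, and it was the farthest of its group in 52.5% of all genes tested. Whether any of these are linked was not tested.

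**Figure D4:**
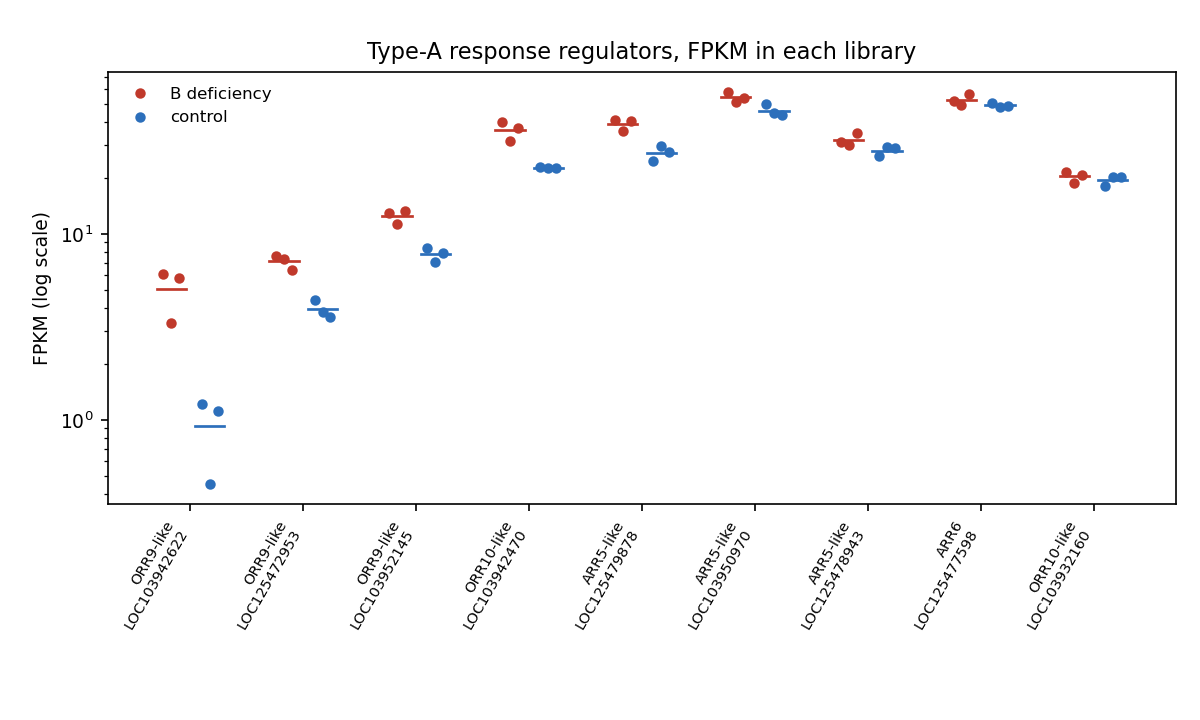
FPKM on a log axis of the 9 tested type-A response regulators, ordered by fold change, with 1 point per library, lines at the group means, and B deficiency (red) left of control (blue). In the 5 genes at the left the B deficiency libraries are all above the control libraries with an adjusted p under 0.05, and the ORR9-like LOC103942622 shows the widest gap, 3.33 to 6.07 FPKM against 0.45 to 1.21 FPKM.

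Type-B response regulators activate the type-A genes. None of the 12 tested was called, against 4.37% of all genes tested called higher and 3.83% lower, and their median log2 fold change was -0.10. With an adjusted p under 0.05, 2 (16.7%) were lower, near the 15.4% of all genes tested. In every B deficiency library 5 (41.7%) were lower, against 26.6% of all genes tested, and 1 (8.33%) was higher, against 18.5%. The strongest difference was in the ARR1-like gene LOC103937948, which had 30.6, 30.2 and 30.8 FPKM under B deficiency and 56.7, 49.6 and 49.0 in the control (log2 fold change -0.76, SE 0.0694, limma adjusted p = 0.000346). The 3 B deficiency libraries hardly differed from each other and lay far below the control range. The deposited domains of this gene hold the receiver domain but no Myb-type DNA-binding domain, while the table places it in the ARR-B family of KEGG. The most expressed type-B gene, the ARR12-like LOC103942390, was also lower in every library, with 60.6, 55.4 and 67.4 FPKM under B deficiency and 78.4, 81.1 and 76.7 in the control (log2 fold change -0.37, SE 0.0767, limma adjusted p = 0.0116). In Arabidopsis, ARR1 and ARR12 are main activators of the cytokinin response in the root.

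The other 10 tested type-B genes had adjusted p above 0.05, with log2 fold changes between -0.54 for the low ARR12-like LOC103949108 and 0.26 for the ARR11 gene LOC103949872. The second ARR11 gene, LOC125471661, had 5.89, 5.67 and 4.71 FPKM under B deficiency and 7.23, 6.62 and 7.08 in the control (log2 fold change -0.36, limma adjusted p = 0.0540), so that the ARR11 genes differed in direction. Of the 5 type-B genes not tested, 4 were listed at 0 and LOC103944086 had at most 0.08 FPKM. Both type-C genes were described as ARR22, with at most 0.11 FPKM. The type-B sum was 229, 233 and 232 FPKM under B deficiency and 278, 275 and 273 in the control. The type-A sum over the type-B sum within each library was 1.18, 1.02 and 1.16 in B deficiency, against 0.742, 0.749 and 0.748 in the control. The dampening regulators thus had the larger summed transcript level in B deficiency and the activating regulators in the control.

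**Figure D5:**
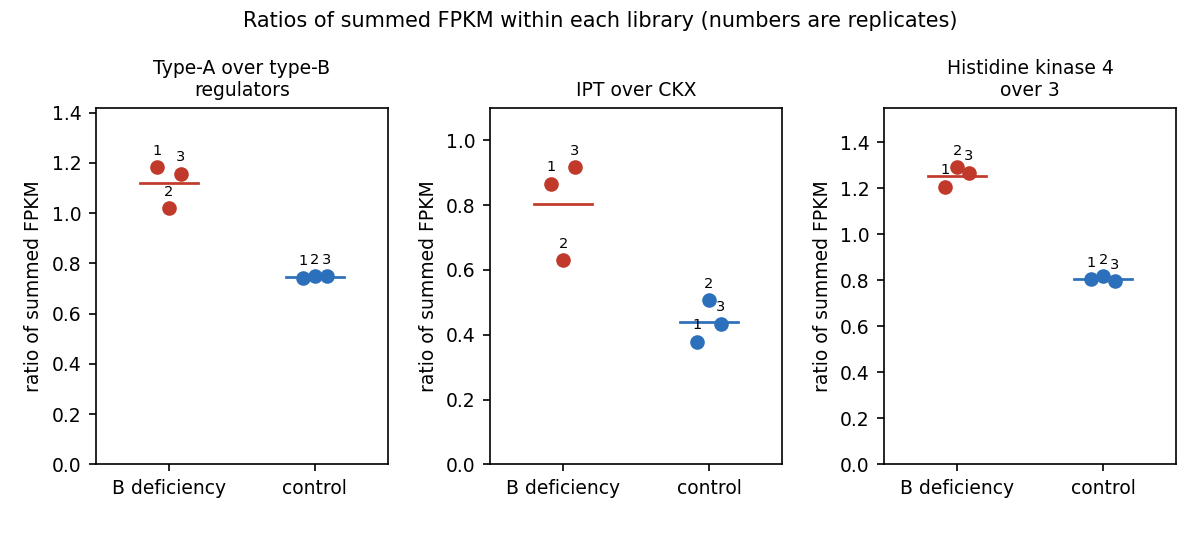
Ratios of summed FPKM within each library, from left to right for type-A over type-B response regulators, IPT over CKX, and histidine kinase 4 over 3, with B deficiency left of control, lines at the group means and the replicate number above each point. In all 3 ratios the B deficiency libraries lie above the control libraries, by the smallest margin for IPT over CKX (lowest 0.629 in B deficiency, highest 0.506 in the control). Each ratio sets a sum with a higher mean in B deficiency over a sum with a lower mean, so it adds no result separate from those sums.

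Of the 10 tested pseudo-response regulators, 7 (70.0%) were lower in every B deficiency library, against 26.6% of all genes tested, and 1 was higher. The clock component APRR1 (TOC1 in Arabidopsis) is encoded by LOC103931384, which had 35.0, 41.3 and 37.7 FPKM under B deficiency and 53.3, 54.2 and 55.7 in the control (log2 fold change -0.52, SE 0.0708, limma adjusted p = 0.00197). A second APRR1 gene, LOC103931191, had 30.4, 32.7 and 30.1 FPKM under B deficiency and 34.9, 36.3 and 33.3 in the control (-0.16, adjusted p = 0.0950). The highest gene, the APRR7 gene LOC103934049, had 47.6, 48.2 and 45.9 FPKM under B deficiency and 50.2, 50.9 and 50.4 in the control (-0.10, adjusted p = 0.194). The other APRR7 gene, LOC103926536, was the one above the control in every library, with 33.6, 40.1 and 34.5 FPKM under B deficiency and 29.6, 31.3 and 31.1 in the control (0.23, adjusted p = 0.0687). The time of day of the harvests is not given for either group.

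Among the 75 tested genes, the smallest adjusted p belonged to a gene whose description and domains disagree. LOC125469170 is described as PRR95, but the only domain found in it is that of a cation efflux transporter, and it shares its best protein match with LOC125469138, which has the receiver and CCT domains of a clock regulator. LOC125469170 had 4.08, 4.61 and 3.88 FPKM under B deficiency and 17.8, 18.1 and 17.8 in the control and was down-regulated (log2 fold change -2.07, SE 0.0916, limma adjusted p = 2.26e-05). LOC125469138 had 24.6, 22.2 and 22.7 FPKM under B deficiency and 29.0, 29.3 and 30.1 in the control (log2 fold change -0.35, SE 0.0634, limma adjusted p = 0.00710). Without the pseudo-response regulators, 3 genes were up-regulated and 2 down-regulated among 65 tested, against 4.37% and 3.83% of all genes tested.

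A further list of 58 genes was matched by description outside the rule, and 37 were tested. It held 11 purine permeases, 8 nucleoside or nucleotide transporters and ABCG14 for transport, 7 adenine phosphoribosyltransferases and 3 adenosine kinases for salvage, 17 UDP-glycosyltransferases of families that hold conjugating enzymes, 3 tRNA isopentenyltransferases, which add the side chain to tRNA, 6 cytokinin response factors and 2 F-box proteins of the KMD kind. Only 1 was called, the purine permease 3-like LOC125475931, of a family that takes up adenine and cytokinin bases in Arabidopsis. It was down-regulated (2.7% of the 37, against 3.83% of all genes tested), with means of 2.23 FPKM under B deficiency and 5.88 in the control (log2 fold change -1.40, limma adjusted p = 0.00420). Without the minimum fold, 3 of the 37 were higher (8.11%, against 12% of all genes tested) and 7 lower (18.9%, against 15.4%), and their median log2 fold change was -0.18, against -0.05. All 5 tested purine permeases had negative log2 fold changes. Of the 6 cytokinin response factors, transcription factors of the ERF family, the CRF2-like LOC103928872 (0.38, adjusted p = 0.0221) and the CRF4-like LOC103958171 (0.57, adjusted p = 0.0278) were higher. The CRF6-like LOC103938757 was lower (-0.91, adjusted p = 0.0341), each from limma and below the minimum fold. ABCG14, which exports cytokinin for transport to the shoot in Arabidopsis, had 39.7 FPKM under B deficiency and 45.4 in the control (LOC125479153, log2 fold change -0.19, limma adjusted p = 0.0273).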

How the data were processed

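The authors deposited FPKM values of 6 root tip libraries, made by read filtering, STAR mapping (P. bretschneideri genome) and RSEM estimation. The submitters' processing notes name HISAT2, Cufflinks 2.2.1 and the mouse builds mm8 and mm9 instead. The genes listed carry plant protein descriptions, which a mouse build would not give. Which programs were used is not settled by the values. Values have 2 decimals, and the fragments behind each are unknown, so no counting interval is given. Per library they summed to between 951200 and 971100 FPKM. Columns were matched to samples by group and replicate number. Columns of group means and ratios made by the authors were not used.

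The annotated table gave descriptions, domains and KEGG names. Expression was compared with limma 3.58.1 in R 4.3.3 (lmFit, eBayes with a trend) on log2(FPKM + 0.1). The contrast was B deficiency over control, without covariates, for 28129 genes averaging 0.5 FPKM or more, with Benjamini-Hochberg adjustment. The authors used DESeq2 for differential expression, and no counts were used here. The fit was tested on simulated data. An exact test of a single gene with 3 against 3 libraries cannot go below p = 0.1. Summed levels and their ratios were not tested, and the ratios were not among the planned results.

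The members, roles and lists were chosen with earlier results of these data known. Genes named by rule were the called members, the 10 largest differences among uncalled members with an adjusted p under 0.05 and no overlap, and the highest member of each role, 23 in all. Others were named after their values were seen. LOC103959345, described as a type-b response regulator, was moved from the histidine kinases after its description was seen. Alternatives were other pseudocounts and minimum levels, 2 scalings, no trend, library weights, a replicate block, no minimum fold and each library left out. Python 3.11.15, pandas 2.3.3, numpy 2.4.6 and scipy 1.17.1 were used.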

Additional observations from a re-analysis of the deposited data

How the results depend on the processing

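Of the 23 genes named by rule, the calls of LOC103955627, LOC125479253 and LOC103932205 depended on the setting, as given beside them (LOC125479253 was not tested at a minimum of 1 FPKM), and the calls of the ORR9-like LOC103942622, the CKX2-like LOC103944039 and LOC125469170 held in all 15 alternatives run. With log2(FPKM + 1), 1 member was called higher and 2 lower. Without a minimum fold, 7693 genes, 9 members higher, 9 lower and 10 of the other pathway genes passed. Library weights gave 3 other pathway genes. With each library left out, between 1914 and 2532 genes, between 2 and 3 members higher, between 2 and 3 lower and between 1 and 3 other pathway genes were called, 3 of these without B deficiency library 2. The near-zero log2 fold change of the phosphotransfer gene LOC103958531 was -0.0011 with quantile normalization, -0.0131 with library weights and between -0.0273 and 0.0456 with a library left out, with no call in any. Among uncalled genes with an adjusted p under 0.05, leaving out control library 1 gave an adjusted p of 0.0514 for LOC103934169 and 0.0565 for LOC103964527, and leaving out control library 2 gave 0.0527 for LOC103942390 (limma). The causes of these differences were not tested.

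The replicate block left 2176 genes, 2 members higher and 2 lower, without LOC125479253 (adjusted p = 0.0552 from limma) and LOC103955627 (0.0502). Same-numbered libraries showed little shared deviation, with correlations of 0.0403, 0.0349 and -0.0048 across genes. Those between libraries of unlike number lay between -0.0665 and 0.0259. Whether the numbers pair the samples is not given, and correlations across all genes cannot exclude a weak or partial pairing. The paper gives the reads of each library, but the fragments behind each value are unknown. The counting error of genes near the minimum of 0.5 FPKM is therefore not given.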
